A study of Homo sapiens with 8 samples.

Results

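The 4 ID genes (ID1, ID2, ID3 and ID4) and the 2 inhibitory SMAD genes (SMAD6 and SMAD7) were examined in MDA-MB-231 breast cancer cells and their ρ0 derivative, in control medium and after arginine starvation. These 6 genes were taken, of the 23393 in the read-count table, as listed targets of BMP and TGF-β signalling, and the set was picked because ID3 moved in opposite directions in the 2 lines. All values of ID3 are therefore given as descriptions without a test. The other 5 genes entered through the list, which was itself chosen with earlier results of these data known, so their p-values carry that limit. RNA-seq had been performed on 8 libraries, 2 in each of 4 groups. Parental control cells were MDA-MB-231, an established line of a triple-negative human breast carcinoma, grown in high-glucose DMEM with serum and left untreated. Parental ADI cells received arginine deiminase (ADI), an enzyme that breaks down arginine, at 0.3 µg/mL for 48 h, whereas the published methods speak of arginine-starved medium. The ρ0 control cells were clone 27, a single MDA-MB-231 clone depleted of mitochondrial DNA and kept, by the published methods, with pyruvate, uridine and ethidium bromide. The ρ0 ADI cells were the same clone given the same dose of ADI for 48 h. With 1 clone, loss of mitochondrial DNA cannot be told apart from other properties of that clone or of its medium.

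ID proteins are helix-loop-helix proteins without a DNA-binding basic region. They pair with E proteins (TCF3, TCF4 and TCF12), which then no longer bind DNA with their usual partners, and are best known for holding back differentiation and favouring proliferation. BMP receptors phosphorylate SMAD1, SMAD5 and SMAD9, which move to the nucleus with SMAD4 and switch on the ID genes directly. SMAD6 and SMAD7 are induced by the same signals and block the receptors or the receptor-activated SMADs in turn, SMAD6 mainly in the BMP branch and SMAD7 in both the BMP and TGF-β branches.

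The libraries held 25259503 to 31022155 counts. The ρ0 control pair stood apart from the other pairs, with a biological coefficient of variation between its 2 libraries of 25.1%, against 1.84% to 5.18% in the other groups. The members' responses in ρ0 cells are given with each of these libraries left out, and other values where a call or a sign depended on it. The mesenchymal markers VIM, CD44, CAV1 and AXL were present in every library, with VIM at 522 CPM (the normalised read count, scaled to a common total by TMM) or more, and their summed level was 3524 to 3613 CPM in parental controls, 1989 to 1997 CPM in parental ADI, 6486 to 7549 CPM in ρ0 control and 5183 to 5323 CPM in ρ0 ADI libraries. The oestrogen receptor gene ESR1 was at 0.180 CPM or less. CDH1 and EPCAM, epithelial genes, had at most 2 and 15 counts in the parental libraries and at least 104 and 397 in the ρ0 libraries, and ASS1, whose enzyme is needed to make arginine, had at most 10 and at least 183. With ESR1, PGR and ERBB2, the last at 30.0 to 86.9 CPM, they make a list of 6 genes that are low or silent in MDA-MB-231, and its summed level was 58.4 to 60.4 CPM in parental controls, 30.1 to 30.7 CPM after ADI, and 133 to 135 CPM and 105 to 107 CPM in the corresponding ρ0 libraries. Among 5 markers of other cell types PTPRC, a leukocyte gene, was at 0.451 CPM or less and CD68 at 51.3 to 122 CPM, and their sum was 103 CPM in both parental controls, 52.1 to 54.8 CPM after ADI, 109 to 125 CPM in ρ0 controls and 90.5 to 95.4 CPM in ρ0 ADI libraries. These sums moved with the line and with ADI, and their part in the results below was not tested. Of 13 genes of the mitochondrial genome looked for, 0 were matched, so the loss of mitochondrial transcripts in the ρ0 clone could not be checked from these counts. Nothing in the labels says that the replicates were separate cultures, so the p-values measure the spread between these libraries, which may be technical. In bulk RNA a lower count can come from fewer cells or from less RNA per cell, and these cannot be told apart.

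The promoters of ID1 and ID3, the genes with the highest levels per kb in 3 of the 4 groups, are shown so that the neighbouring sequence can be read beside their values. Both are the 250 bases before the RefSeq start site on GRCh38.p14, ID1 at chr20:31605039-31605288 on the plus strand and ID3 at chr1:23559502-23559751 on the minus strand, written 5′ to 3′ along the gene. Capitals mark the SMAD box CAGAC in ID3 and the TATA box TATAAA in ID1, where a match on the opposite strand overlaps the first.
ID1: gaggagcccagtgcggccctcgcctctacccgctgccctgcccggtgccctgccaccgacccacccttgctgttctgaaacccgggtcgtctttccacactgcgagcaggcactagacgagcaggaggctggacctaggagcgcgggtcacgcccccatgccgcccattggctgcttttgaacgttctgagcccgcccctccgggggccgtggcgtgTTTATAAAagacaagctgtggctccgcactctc
ID3: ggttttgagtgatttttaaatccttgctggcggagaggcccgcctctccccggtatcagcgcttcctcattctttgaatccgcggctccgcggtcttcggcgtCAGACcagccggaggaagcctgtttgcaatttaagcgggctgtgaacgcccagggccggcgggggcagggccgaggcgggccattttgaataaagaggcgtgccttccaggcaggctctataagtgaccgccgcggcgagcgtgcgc

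ID3 held 1 CAGAC, at 147 bases before the start, and ID1 held none. Searched on both strands, CAGAC was found in 38.0% of 35116 promoter windows of this length and TATAAA in 10.7%. Of the other members, CAGAC was present in the window of ID4 and in 2 of the 3 SMAD7 windows, 1 for each start site, and TATAAA in that of ID4 and in 1 SMAD7 window. The ID2 and SMAD6 windows held neither. The GC-rich BMP element GGCGCC, the cyclic AMP response element TGACGTCA, the ATF4-C/EBP element TGATGNAA and the EGR site GCGTGGGCG, found in 16.4%, 1.65%, 3.14% and 0.72% of all windows, had no match in the window of any member. These matches describe letters in a short window and do not show binding. The best studied BMP-responsive enhancer of ID1 lies farther upstream than this window reaches.

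Of the members counted in every library, ID3 had the widest range of levels as a ratio of the highest to the lowest library, and its order among groups was parental ADI, ρ0 control, parental control and ρ0 ADI. No neighbours in this order overlapped, but the lower ρ0 control library was nearer to the parental controls than to its own replicate. The parental control libraries had 5.81 and 5.63 CPM of ID3 (194 and 162 counts). After ADI they had 60.5 and 57.5 CPM (1528 and 1623 counts). Both treated parental libraries were far above both controls, and the fitted difference was 3.37 on the log2 scale (10.3-fold).

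In the ρ0 clone the direction was the opposite. The ρ0 control libraries had 9.50 and 29.2 CPM of ID3 (274 and 908 counts), a 3.07-fold gap between replicates that far exceeded the 1.03-fold gap between the parental controls. The ρ0 ADI libraries had 2.09 and 1.74 CPM (62 and 42 counts). Neither ρ0 control library overlapped the ρ0 ADI libraries, and the fitted difference was -3.33 on the log2 scale (10.0-fold lower). It was -3.91 without ρ0 control replicate 1 and -2.28 without ρ0 control replicate 2, so its size depended on which of the 2 libraries was used but its direction did not. The difference between the 2 responses of ID3 was -6.69, with -7.28 without the first and -5.68 without the second of these libraries.

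Between the lines, ID3 was higher in ρ0 than in parental cells in control medium (log2 difference of 1.76, with 2.35 and 0.78 without ρ0 control replicate 1 or 2) and lower after ADI (-4.93). These values follow from the pattern on which ID3 was selected and carry no test. Averaged over both media, ID3 was lower in ρ0 cells by a log2 difference of -1.59, with -1.29 and -2.06 without ρ0 control replicate 1 or 2. This average combines a positive and a negative difference.

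**Figure D1:**
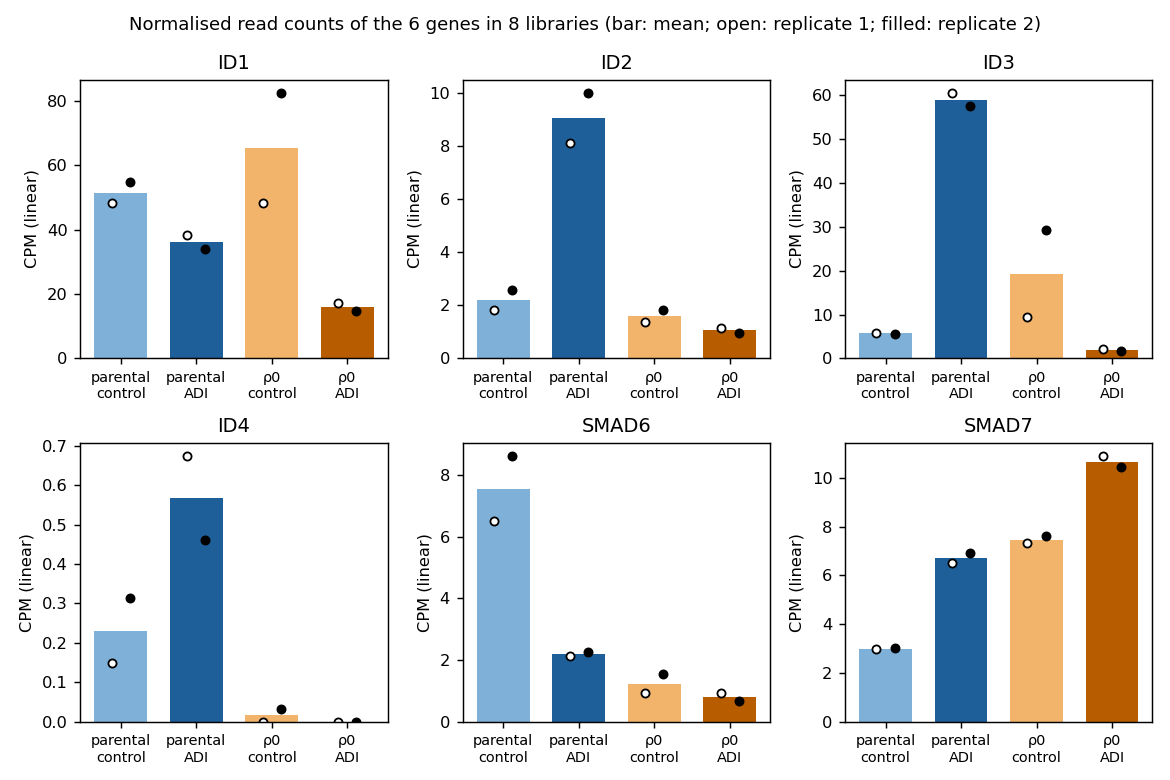
Normalised read counts (CPM, linear axis from 0, with its own scale in each panel) of the 6 genes in the 8 libraries. Bars are means of 2 libraries, open points replicate 1 and filled points replicate 2. The parental ADI bar is the tallest for ID2, ID3 and ID4, whereas SMAD7 rises to its highest level in the ρ0 ADI libraries, and the 2 ρ0 control points of ID1 and ID3 lie far apart.

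ID1, the classical early BMP target, had the highest level per kb of all members except in the parental ADI libraries, where ID3 led. The parental controls had 48.2 and 54.8 CPM (1607 and 1579 counts) and the parental ADI libraries 38.4 and 34.0 CPM (969 and 959 counts). The groups did not overlap, yet the log2 difference of -0.51 (SE 0.23) did not pass the test (adjusted p = 0.0898 by edgeR). It passed when the spread was not shared with the ρ0 control pair, with adjusted p-values of 3.13e-05 for the parental libraries alone and 6.68e-05 with limma-voom and a weight per group. It also passed with upper quartile scaling (0.0484) and with total counts (0.04).

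The fall of ID1 in the ρ0 clone was larger. The ρ0 controls had 48.2 and 82.5 CPM (1389 and 2567 counts), and the ρ0 ADI libraries had 17.2 and 14.7 CPM (508 and 354 counts). Both treated libraries lay below every other library of the series, and ID1 fell by 2.04 on the log2 scale (SE 0.25, adjusted p = 0.000808 by edgeR), which is 4.10-fold. The change was -2.37 and -1.58 without ρ0 control replicate 1 or 2, and passed the test in both cases. The responses of the 2 lines differed, with an interaction of -1.53 (SE 0.34, adjusted p = 0.0105). It was -1.86 and -1.11 without ρ0 control replicate 1 or 2, both past the threshold, and -1.44 with an adjusted p of 0.0518 without parental control replicate 1. In control medium the 2 lines overlapped and ID1 did not differ beyond its spread (log2 difference 0.34, 95% interval -0.20 to 0.89, adjusted p = 0.23). The difference was 0.68 without ρ0 control replicate 1, where it rests on replicate 2 alone at 82.5 CPM. Replicate 1, at 48.2 CPM, was level with the lower parental control, also at 48.2 CPM. After ADI ID1 was lower in ρ0 cells (-1.18, adjusted p = 0.00349).

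ID2, which also binds retinoblastoma protein, rose in parental cells, and its response differed between the lines. The parental controls had 1.83 and 2.57 CPM (61 and 74 counts), and the parental ADI libraries had 8.12 and 9.99 CPM (205 and 282 counts), a log2 rise of 2.05 (SE 0.24, adjusted p = 0.000217 by edgeR). The ρ0 controls had 1.35 and 1.83 CPM and the ρ0 ADI libraries 1.15 and 0.952 CPM, on 23 to 57 counts a library. The treated ρ0 libraries were the lowest of the series without overlapping their controls, but the log2 difference of -0.59 (SE 0.29) did not pass the test (adjusted p = 0.137). It was -0.79 with an adjusted p of 0.0344 without ρ0 control replicate 1 and -0.34 with 0.404 without replicate 2. The interaction was -2.64 (SE 0.37, adjusted p = 0.00199), and -2.85 and -2.43 without ρ0 control replicate 1 or 2. ID2 was lower in ρ0 than in parental cells after ADI (-3.10, adjusted p = 4.26e-05), and in control medium the lines overlapped (adjusted p = 0.166).

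ID4, the least abundant member, was measured in parental cells alone at a useful depth. It had 5 and 9 counts in the parental controls and 17 and 13 counts in the parental ADI libraries, which did not overlap. The fitted log2 difference was 1.30 (SE 0.53). ID4 passed the expression filter through the parental ADI libraries, where it was highest, so no test of its response is given. The ρ0 libraries had 0 and 1 counts in control medium and 0 in both ADI libraries. Against a floor of 3 counts per library, ID4 was at least 2.31-fold lower in ρ0 than in parental cells in control medium and at least 5.03-fold lower after ADI. No response in ρ0 cells could be measured at this depth.

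SMAD6 and SMAD7, the inhibitory members, moved in opposite directions in parental cells. SMAD6 had 6.50 and 8.61 CPM in the parental controls (217 and 248 counts) and 2.14 and 2.27 CPM in the parental ADI libraries (54 and 64 counts). It fell by 1.77 on the log2 scale (SE 0.27, adjusted p = 0.000778 by edgeR), a 3.42-fold fall with no overlap. In the ρ0 clone SMAD6 was already low, at 0.936 and 1.54 CPM in the controls and 0.946 and 0.663 CPM after ADI, on 16 to 48 counts. The ρ0 groups overlapped and the log2 difference of -0.61 (SE 0.34) did not pass the test (adjusted p = 0.185). It was -0.91 with an adjusted p of 0.0264 without ρ0 control replicate 1 and -0.18 with 0.71 without replicate 2. The interaction of 1.16 (SE 0.43) also missed the threshold (adjusted p = 0.0678), and it was 0.85 and 1.55 without ρ0 control replicate 1 or 2. SMAD6 was lower in ρ0 than in parental cells both in control medium (6.04-fold, adjusted p = 0.000163) and after ADI (2.70-fold, adjusted p = 0.00533).

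SMAD7 was the one member that rose in both lines. It had 2.97 and 3.02 CPM in the parental controls (99 and 87 counts) and 6.49 and 6.91 CPM in the parental ADI libraries (164 and 195 counts), a log2 rise of 1.16 (SE 0.13, adjusted p = 0.000198 by edgeR). The ρ0 controls had 7.32 and 7.62 CPM (211 and 237 counts) and the ρ0 ADI libraries 10.9 and 10.4 CPM (322 and 252 counts). The 4 groups did not overlap, and the ρ0 controls lay above the treated parental libraries. The ρ0 rise was 0.51 (SE 0.12, adjusted p = 0.0144), but its adjusted p was 0.0748 with the ρ0 libraries alone, 0.23 with limma-voom and 0.0934 and 0.0667 without ρ0 ADI replicate 1 or 2. Without ρ0 control replicate 1 or 2 it was 0.49 and 0.56, both past the threshold. The rise was smaller in ρ0 than in parental cells (interaction -0.65, SE 0.18, adjusted p = 0.0262). That interaction missed the threshold when any one of the parental or ρ0 ADI libraries was left out, with adjusted p-values from 0.0724 to 0.104, and with limma-voom (0.134). SMAD7 was higher in ρ0 than in parental cells in control medium (2.49-fold, adjusted p = 0.000111) and after ADI (1.59-fold, adjusted p = 0.00229).

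**Figure D2:**
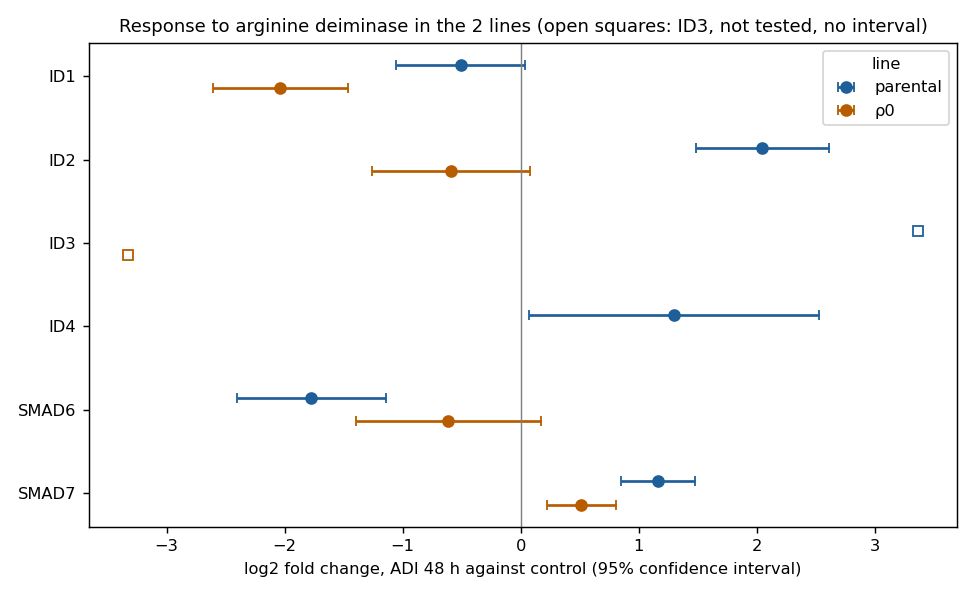
Log2 fold change after 48 h of ADI against control (x axis) for each of the 6 genes (y axis) in parental (blue) and ρ0 cells (orange). Points are fitted values with 95% confidence intervals; the open squares of ID3, at 3.37 and -3.33, have none because ID3 was selected on these values, and the ρ0 value of ID4 is left out for lack of counts. ID2 rises in parental cells and ID1 falls in ρ0 cells, while SMAD7 lies to the right of 0 in both lines.

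Leaving out ID3, 2 of the 5 members rose and 1 fell in parental cells, against 30.4% and 35.5% of the 15262 tested genes called higher and lower (adjusted p under 0.05, edgeR). In ρ0 cells 1 rose and 1 fell, against 19.2% and 22.1% of all genes. The interaction was negative for 3 members and positive for 0, against 18.8% and 21.6%. In control medium 1 member was higher and 2 were lower in ρ0 cells, against 30.5% and 31.8%, and after ADI 1 was higher and 4 were lower, against 32.9% and 33.5%. Averaged over both media, 1 was higher and 3 were lower, against 35.8% and 35.9%. ID4, which passed the filter through 1 group, is among the lower members in the last 3 comparisons. So large a share of all genes moved that counts of this size on 5 genes do not set the members apart. The median log2 change of all tested genes was within 0.08 of 0 in each comparison, at -0.07 in parental and -0.02 in ρ0 cells.

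Levels can be compared between members only per length, here as CPM per kb of merged exons. In parental controls ID1 was at 41.8 CPM per kb, ID3 at 4.57, SMAD6 at 1.97, ID2 at 1.03, SMAD7 at 0.661 and ID4 at 0.0986. After ADI the first place in parental cells passed to ID3 at 47.2, with ID1 at 29.3 and ID2 at 4.23. In ρ0 cells ID1 led in both media, at 53.0 and 12.9 CPM per kb, and after ADI the next was SMAD7 at 2.35, above ID3 at 1.53.

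The pathway that controls these genes was described from 11 lists with 140 symbols, of which 107 genes passed the expression filter. In parental cells 48 of the 107 were higher and 28 lower after ADI (44.9% and 26.2%, median log2 change 0.42), beside the 30.4% and 35.5% of all genes. In ρ0 cells 40 were higher and 20 lower (37.4% and 18.7%, median 0.28), beside 19.2% and 22.1% of all genes. The interaction was positive for 22 and negative for 32 (20.6% and 29.9%, median -0.22), beside 21.6% and 18.8%. The counts of the single lists, of 4 to 18 genes each, are to be read against the same shares of all genes. Of the 8 tested BMP ligands, 1 rose and 4 fell in parental cells, and 0 rose and 2 fell in ρ0 cells. Among these ligands, BMP5 had 123 and 108 counts in parental controls and 2 or fewer in the other libraries. BMP5 passed the expression filter through that group, where it was highest, so a call of it is no test. Of 11 TGF-β and activin ligands, 4 rose and 1 fell in parental and 4 rose and 3 fell in ρ0 cells. The 7 type I receptors split into 3 rises and 2 falls in parental and 3 and 1 in ρ0 cells, the 4 type II receptors into 1 and 1, and 1 and 0, and the 4 co-receptors into 0 and 2, and 0 and 1. Of the 6 SMADs that carry the signal, 2 rose and 2 fell in parental and 3 rose and 1 fell in ρ0 cells. Of 15 secreted antagonists, 3 rose and 7 fell in parental cells (46.7% lower, beside 35.5% of all genes), and 3 rose and 4 fell in ρ0 cells. SOST, an antagonist with 43 and 21 counts in ρ0 controls and 5 or fewer elsewhere, has the same limit as BMP5. Of the 9 E proteins and partners, 5 rose and 2 fell in parental and 3 rose and 0 fell in ρ0 cells, and of the 9 upstream and stability factors, 7 rose and 2 fell, and 4 rose and 2 fell.

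**Figure D3:**
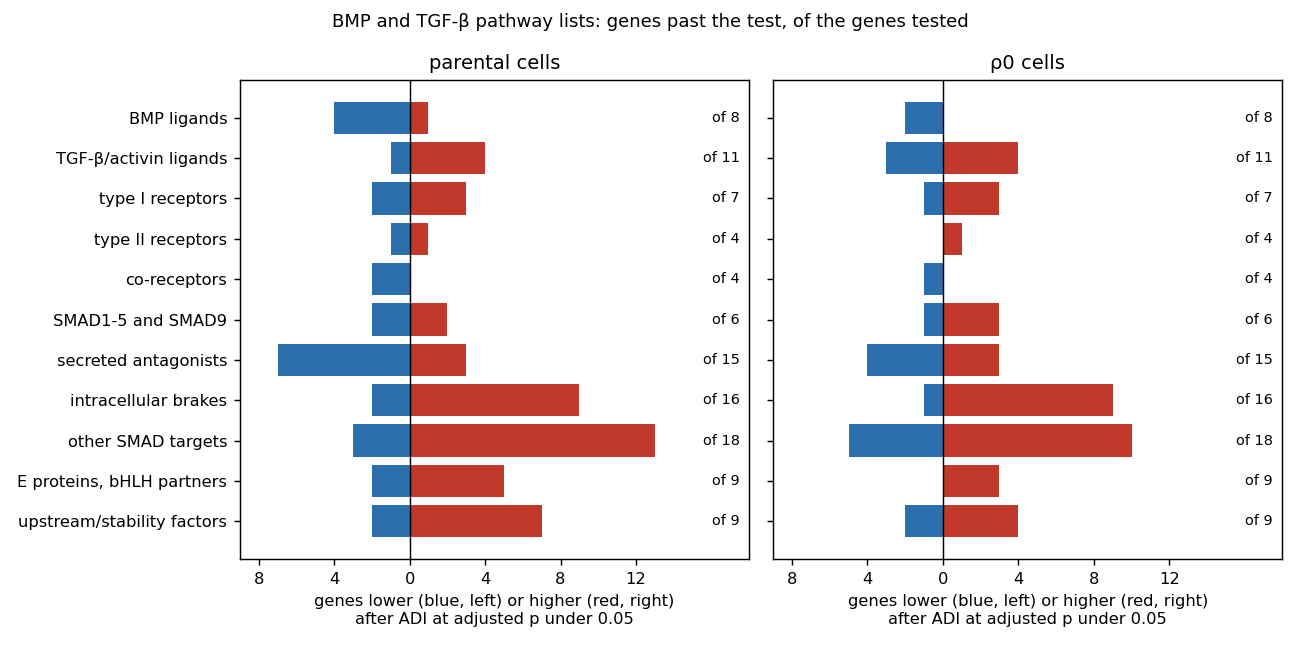
Numbers of genes called lower (blue, to the left) or higher (red, to the right) after ADI in each of the 11 BMP and TGF-β pathway lists, for parental cells (left panel) and ρ0 cells (right panel), with the number tested at the right edge. Of 18 other SMAD targets, 13 were higher in parental and 10 in ρ0 cells (72.2% and 55.6%), and of 16 intracellular brakes, 9 and 9 (56.2% in both), beside 30.4% and 19.2% of all genes. Lower were 3 and 5 of these targets (16.7% and 27.8%) and 2 and 1 of the brakes (12.5% and 6.25%), beside 35.5% and 22.1% of all genes. No test of a list was made.

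Among the ligands, BMP4 was far more abundant in the ρ0 clone and fell in both lines. It had 27.9 and 29.2 CPM in parental controls and 17.1 and 16.2 CPM after ADI, a log2 change of -0.78 (adjusted p = 0.0046 by edgeR). In ρ0 cells it went from 313 and 214 CPM to 63.4 and 61.7 CPM, a change of -2.07 (adjusted p = 0.000201), with -1.78 and -2.31 without ρ0 control replicate 1 or 2. The 2 ρ0 groups did not overlap, and the fall was larger than in parental cells (interaction -1.29, adjusted p = 0.00502). BMP2 took the opposite course, rising in parental cells from 23.8 and 21.9 to 48.5 and 49.2 CPM (log2 change 1.09, adjusted p = 0.00314). It had 7 counts or fewer in each ρ0 library. INHBE, an activin β-subunit gene that is also a known target of the amino acid stress response, rose in parental cells from 9 and 12 counts to 166 and 198 (log2 change 4.31, adjusted p = 1.28e-05). In ρ0 cells it had 4 and 4 counts in control medium and 10 and 9 after ADI (1.38, adjusted p = 0.0396). That call was lost with limma-voom (adjusted p = 0.555), with the ρ0 libraries alone (0.107) and with DESeq2 (0.0904). The ρ0 change of INHBE was 1.43 and 1.33 without ρ0 control replicate 1 or 2.

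Of the signal-carrying SMADs, SMAD9 was named as the largest significant rise in parental cells and the largest significant fall in ρ0 cells. Its directions, those of ID3, follow from that choice, and its p-values are no independent support. It had 6.83 and 6.29 CPM in parental controls and 13.7 and 15.1 CPM after ADI, a rise of 1.13 (adjusted p = 0.000871 by edgeR). In ρ0 cells it had 1.32 and 1.90 CPM in control medium and 0.676 and 0.787 CPM after ADI, a change of -1.14 (adjusted p = 0.00917, but 0.0768 without ρ0 ADI replicate 1, 0.08 with the ρ0 libraries alone and 0.217 with limma-voom). The interaction was -2.28 (adjusted p = 0.00162). SMAD1 moved the other way, with -0.93 in parental cells (adjusted p = 0.000254) and 0.64 in ρ0 cells (adjusted p = 0.00535, but 0.0697 with the ρ0 libraries alone and 0.217 with limma-voom). SMAD3, the largest significant fall of these SMADs in parental cells, changed by -1.24 there (adjusted p = 1.51e-05) and by 0.49 in ρ0 cells (adjusted p = 0.00219). SMAD5, SMAD4 and the receptor gene BMPR2 passed the test in neither line, with log2 changes between -0.14 and 0.13. Without ρ0 control replicate 1 or 2, BMPR2 passed in ρ0 cells at 0.21 and -0.38. SMAD5 passed without replicate 2, in ρ0 cells (0.27, adjusted p = 0.0055) and in parental cells (0.15, adjusted p = 0.0341), and with the parental libraries alone (adjusted p = 0.0473). NOG, a secreted BMP antagonist, fell in parental cells (log2 change -2.09, adjusted p = 2.04e-05) and in ρ0 cells (-0.55, adjusted p = 0.0151, but 0.0868 with limma-voom). Its ρ0 change was -0.60 and -0.47 without ρ0 ADI replicate 1 or 2. The secreted antagonists with the largest significant rise in parental and in ρ0 cells were FSTL3 and BMPER. FSTL3 rose by 2.71 in parental (adjusted p = 5.06e-05) and 0.98 in ρ0 cells (adjusted p = 0.00974, but 0.0616 with the ρ0 libraries alone). BMPER rose by 2.33 (adjusted p = 8.34e-06) and 2.01 (adjusted p = 5.95e-05).

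ATOH8, another BMP-SMAD target and itself a helix-loop-helix gene, moved in the directions of ID3, with close replicates. It was named as the largest significant fall of its list in ρ0 cells, so its ρ0 and interaction p-values are no independent support. It had 12 and 12 counts in parental controls and 30 and 36 after ADI (0.360 and 0.417 against 1.19 and 1.28 CPM), a rise of 1.66 (adjusted p = 0.000736 by edgeR). In ρ0 cells it had 62 and 68 counts in control medium and 17 and 15 after ADI (2.15 and 2.19 against 0.574 and 0.621 CPM), a change of -1.86 (adjusted p = 0.000829). No groups overlapped, the ρ0 controls were the highest, and the interaction was -3.52 (adjusted p = 0.000532). Other SMAD targets rose in both lines. KLF10, a TGF-β-inducible repressor, had changes of 3.49 (adjusted p = 1.3e-05) and 1.34 (adjusted p = 0.00142), and HEY1, a Notch and BMP target, had 1.87 (adjusted p = 8.49e-05) and 1.82 (adjusted p = 0.00109, and 0.204 with limma-voom). TGFBI, an extracellular matrix protein gene of the TGF-β branch, fell in parental cells (-3.95, adjusted p = 4.87e-06) and in ρ0 cells (-0.63, adjusted p = 0.00184).

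**Figure D4:**
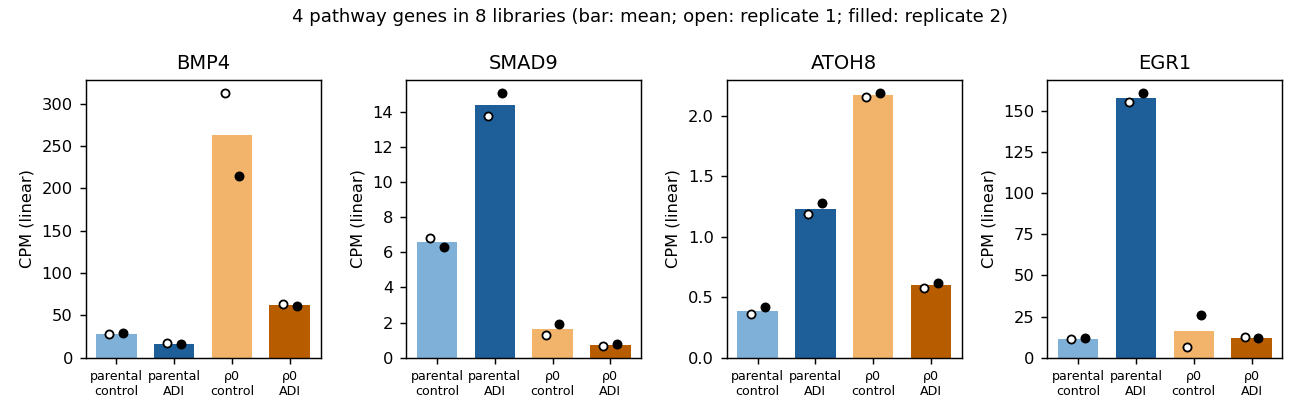
Normalised read counts (CPM, linear axis from 0) of the ligand gene BMP4, the signal-carrying SMAD9, the BMP target ATOH8 and the upstream regulator EGR1 in the 8 libraries, with bars for the mean of 2 libraries, open points for replicate 1 and filled points for replicate 2. BMP4 and ATOH8 are highest in the ρ0 controls, SMAD9 and EGR1 in the parental ADI libraries, and the ρ0 control points of EGR1 are at 6.42 and 26.2 CPM.

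The brakes other than SMAD6 and SMAD7 included SKIL, a SMAD-binding repressor, which rose in parental cells (log2 change 1.91, adjusted p = 5.05e-05) and not by the test in ρ0 cells (0.30, adjusted p = 0.178). The ρ0 change of SKIL was 0.06 and 0.59 without ρ0 control replicate 1 or 2. TGIF1, a SMAD2 co-repressor, rose in ρ0 cells by 1.31 (adjusted p = 0.000412). In parental cells it changed by -0.38 (adjusted p = 0.0381), a call lost when any parental or ρ0 ADI library was left out. PMEPA1, which holds SMAD2 and SMAD3 from the receptor, fell in ρ0 cells (-0.75, adjusted p = 0.00148) and did not pass in parental cells (0.07, adjusted p = 0.582).

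Of the E proteins that ID proteins bind, TCF3 rose in both lines, by 0.46 in parental (adjusted p = 0.00158 by edgeR) and 0.54 in ρ0 cells (adjusted p = 0.00187), with an interaction of 0.08 (95% interval -0.18 to 0.35). TCF12 rose by 0.53 (adjusted p = 0.000887) and 0.29 (adjusted p = 0.0255, but 0.119 with the ρ0 libraries alone and 0.13 and 0.106 without ρ0 ADI replicate 1 or 2). TCF4 went from 66 and 56 counts in parental controls to 2 and 6 after ADI, a fitted log2 difference of -3.68. It had 3 to 6 counts in the ρ0 libraries. TCF4 passed the expression filter through the parental controls, where it was highest, so no test of its response is given. It is among the parental falls counted in its list above. HES1, a helix-loop-helix repressor, rose by 3.01 in parental (adjusted p = 4.68e-06) and 1.28 in ρ0 cells (adjusted p = 0.000123).

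EGR1, an immediate early transcription factor known to bind ID gene promoters, had 11.3 and 11.9 CPM in parental controls and 155 and 161 CPM after ADI, a rise of 3.77 (adjusted p = 0.000589 by edgeR). The ρ0 controls were at 6.42 and 26.2 CPM (185 and 815 counts), either side of the ρ0 ADI libraries at 12.3 and 11.7 CPM. The ρ0 difference was -0.45 (adjusted p = 0.524), with -1.12 and 0.92 without ρ0 control replicate 1 or 2. The ρ0 control replicate 2 library was thus the higher of its pair for EGR1 as for ID1 and ID3. ATF3, a stress-induced repressor that acts on ID1 with SMAD3, rose in both lines, by 4.22 in parental (adjusted p = 9e-06) and 2.02 in ρ0 cells (adjusted p = 0.000305), with an interaction of -2.20 (adjusted p = 0.00111).

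Likeness to ID3 was measured over all 8 libraries as the root mean square difference in log2(CPM + 0.1), centred on each gene's mean, among 13212 other genes with a mean of at least 1 CPM. The closest profiles were those of MYO5B at 0.940, INSL4 at 0.944, TMEM40 at 1.04, EGR1 at 1.06 and ID2 at 1.06. These distances were large beside those found for ID1. INSL4, a gene of the insulin and relaxin family, had 26 and 26 counts in parental controls and 137 and 178 after ADI, and 15 and 14 counts against 4 and 3 in ρ0 cells. ID1 had closer neighbours, namely TMEM97 at 0.173, KIAA0101 at 0.188, E2F8 at 0.201, PKMYT1 at 0.220 and GINS1 at 0.221. TMEM97 had 55.6 and 59.3 CPM in parental controls, 43.1 and 40.9 CPM after ADI, 40.5 and 83.6 CPM in ρ0 controls and 15.0 and 15.3 CPM in ρ0 ADI libraries. Among the members ID2 and ID4 were nearest at 0.462, but ID4 had 1 count or fewer in each ρ0 library. Its values there were set mainly by the added 0.1 CPM, and its mean was under the 1 CPM limit. Apart from ID4 the closest pair was ID1 and SMAD6 at 1.01, while ID1 and ID3 differed by 1.56 and SMAD6 and SMAD7 by 1.83. These likenesses are descriptions over libraries that share their scaling and the ρ0 control pair.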

How the data were processed

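The authors deposited 1 table of raw counts of reads per gene symbol for 8 libraries of total RNA, without normalization. The submitters' processing notes name Bowtie, Partek and the build hg19, while the annotation and strand setting are not given in the sources used here, so genes are given by symbol. The 23393 genes were filtered by edgeR's filterByExpr, which left 15262 including all 6 members, and scaled by TMM. In R 4.3.3, the 4 groups entered a single edgeR 4.0.16 quasi-likelihood fit, which shares 1 estimate of the spread per gene (4 residual degrees of freedom, prior 3.40). P-values were adjusted by Benjamini-Hochberg over all tested genes, and a call is an adjusted p under 0.05. SE was obtained from the log2 fold change and its F statistic. A group with 3 counts or fewer in each library was given a bound.

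The members and gene lists were chosen with earlier results of these data known. Pathway genes named were drawn from the largest significant rise and fall, per list and response, among genes with a mean of at least 1 CPM. Not every gene picked by that rule is described. SMAD1, SMAD5, SMAD4, BMPR2, BMP4, TCF3, TCF4, TCF12, EGR1 and ATF3 were added. Genes that entered by the rule, INHBE, SMAD9 and ATOH8 among them, were picked on these same responses, so their p-values there are no independent support. Replicate numbers were not taken as pairs, since deviations of same-numbered libraries correlated between -0.10 and 0.067. Exon lengths came from GENCODE and promoters from RefSeq on GRCh38.p14, used for names, lengths and sequence only. Alternatives were other scalings and filters, DESeq2 1.42.0, limma 3.58.1 (voom with group weights), a replicate block, 1 line alone, a log2 fold threshold of 1 and leaving out each library, which leaves a lone library assumed to vary like the other groups. Tested on simulated data with 200 of 15262 genes changed, edgeR recovered 92.5% of the parental changes with 18 others called, and 82.5% of the interactions with 16 others. These rates hold for that setting alone. In the libraries themselves 10060 genes were called in parental cells, and recovery with so many genes changed was not tested. The rates were not split by size of change, nor given for a pair as widely spread as the ρ0 controls. Intervals do not cover differences between cultures.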

Additional observations from a re-analysis of the deposited data

Results flagged for a closer look

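The response to ADI differed between the 2 lines for ID1 (interaction -1.53), ID2 (-2.64) and SMAD7 (-0.65) by edgeR's test of the difference, with the adjusted p-values given above. The SMAD7 call was lost with limma-voom, and the calls of SMAD7 and ID1 depended on single libraries, as given above. For ID3 both parental ADI libraries lay above both parental controls, and both ρ0 ADI libraries lay below both ρ0 controls. The difference between the responses was -6.69, which was not tested because ID3 was selected on it.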

How the results depend on the processing

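The direction of every member's called change was kept in all the alternatives run. With limma-voom and group weights, all 5 members besides ID3 passed in parental cells (ID4 with the limit of its filter), 1 passed in ρ0 cells and 3993 genes were called in ρ0 cells. With 1 line fitted alone, 5 members passed in parental cells, and in ρ0 cells 1 member, 21 pathway genes higher, 11 lower and 2985 genes in all. Here and in the member counts below, any pass of ID4 has the same limit of its filter and is no test of its response. With a log2 fold threshold of 1, calls numbered 5320 in parental cells, 1894 in ρ0 cells, 3037 for the interaction, 4718 between lines in control medium, 5415 after ADI and 4736 for the average. The pathway genes were then 31 higher in parental cells, 14 higher and 10 lower in ρ0 cells and 17 lower in the interaction, and 1 member passed in ρ0 cells. Leaving out 1 library at a time gave 3 to 5 members in parental cells, 1 to 4 in ρ0 cells and 1 to 4 in the interaction. It gave 3221 to 9750 genes in ρ0 cells and 3563 to 10281 in the interaction, the highest counts without a ρ0 control library, and pathway genes of 26 to 50 higher and 11 to 27 lower in ρ0 cells and 15 to 37 higher in the interaction. The cause was not tested.

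The sign turned for 3 named pathway genes when a ρ0 control library was left out. In ρ0 cells, without replicate 1 or 2, BMPR2 was 0.21 and -0.38, the receptor gene TGFBR2 0.33 and -0.38, and EGR1 -1.12 and 0.92, and the BMPR2 interaction was 0.35 and -0.27. Scaling by total counts moved the median of all genes in parental cells to -0.23 and the share of calls that were higher from 46.1% to 37.6%, and in ρ0 cells from 46.6% to 38.2%. Upper quartile scaling moved that share for the interaction from 53.4% to 62.0%. With the replicate block as a paired term, 9896 genes were called in parental cells, 5915 in ρ0 cells and 5731 in the interaction, and no call of a member changed. 2 libraries per group and counts under 20 for ID4 limit what could be detected.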
